A study of Bos taurus with 12 samples.

Results

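This report follows the genes of the zinc finger transcription regulator families in cattle oocytes, defined as every gene whose symbol begins with ZNF or ZFP and a digit, with ZBTB, or with ZSCAN. Of 9155 genes that the platform annotation named with 1 symbol, 113 fitted this rule, through 150 probe sets, and each was represented by its probe set with the highest mean over all 12 arrays. They comprised 87 ZNF, 16 ZBTB, 5 ZFP and 5 ZSCAN genes. The study hybridised 12 bovine arrays, 3 for each of 4 groups of Japanese Black cattle oocytes. The groups were MII oocytes from prepubertal heifers, MII oocytes from adult cows, GV oocytes from prepubertal heifers and GV oocytes from adult cows. GV (germinal vesicle) oocytes are immature, while MII (metaphase II) oocytes had been matured in vitro for 20 to 22 h and chosen by their polar body. Each array held amplified RNA of a pool of 50 denuded oocytes from follicles of 2 to 8 mm. The heifers were 9 to 12 months old and their ovaries came from spaying on farms, whereas the adult ovaries came from an abattoir, so donor age and ovary source cannot be told apart. All MII oocytes were matured in vitro, and MII oocytes matured in the animal were not analysed here.

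C2H2 zinc finger proteins read DNA through tandem finger modules, and many carry a second domain that sets what they do there. A KRAB domain recruits TRIM28 and the histone methyltransferase SETDB1 to silence chromatin, a BTB domain binds corepressors such as NCOR or the ubiquitin ligase scaffold CUL3, and a SCAN domain pairs one protein with another. A fully grown oocyte is largely silent in transcription, so its messages are mostly stored and then translated or degraded during maturation. The symbol rule also takes in genes that are no DNA-binding repressors: ZFP36, ZFP36L1 and ZFP36L2 have CCCH fingers and bind AU-rich messages to hasten their decay, and ZBTB8OS encodes a tRNA ligase cofactor named for its position opposite ZBTB8. No sequence is shown here.

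Signals are given as deposited, on a log2 scale, for replicates 1, 2 and 3 of a group in that order, and differences are on the same scale. In these pools, fewer cells of a type and less RNA per cell cannot be told apart. The 9 known oocyte genes on the array were used to check the labelled cell type. Their median lay 6.06 to 8.70 above the array median on 9 arrays. It lay at -0.25 on MII prepubertal replicate 1, -0.55 on GV prepubertal replicate 1 and 0.65 on GV adult replicate 1. On the 2 prepubertal arrays of these 3, the median of 16 cumulus cell genes was 3.91 (MII) and 2.28 (GV) above the array median, and that of 12 theca cell genes was 2.77 (MII) and 1.53 (GV) above it. The cumulus median ranged from -1.52 to 0.80 over the 9 arrays, and GV adult replicate 1 correlated with no other array above a Spearman coefficient of 0.138. Each result is therefore given over 12 arrays and over the 9 with an oocyte profile, which keep 2 arrays of every group but MII adult, which keeps 3. The part that the other 3 arrays' make-up plays in any result was not tested. Of the 113 genes, 85 had a mean signal over 12 arrays above 5.57, the 40th percentile of all probe sets, and were tested. The other 28 were not: ZBTB24, ZBTB44, ZBTB48, ZFP2, ZNF35, ZNF48, ZNF74, ZNF174, ZNF180, ZNF205, ZNF331, ZNF335, ZNF384, ZNF385A, ZNF385B, ZNF408, ZNF414, ZNF432, ZNF555, ZNF567, ZNF582, ZNF608, ZNF644, ZNF777, ZNF800, ZNF814, ZNF821 and ZSCAN16. No detection calls were used, so a low signal cannot be told from background. Since the threshold uses the mean of all 12 arrays, a gene can pass it through only those groups or arrays where it is high.

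No zinc finger gene passed an adjusted p of 0.05 (limma, Benjamini-Hochberg over 14409 probe sets) in any comparison, over 12 or 9 arrays. The background was equally thin: 0% of all probe sets were called in every 12-array comparison, and 0.118%, or 17 probe sets, in the 9-array comparison of MII adult with GV adult oocytes. What follows therefore describes values, with genes picked out by an unadjusted p under 0.05 or by groups that did not overlap. The median standard error of a zinc finger gene's difference was 1.54 over 12 arrays, and the median residual SD between arrays of a group was 1.9. Differences near that standard error, or somewhat over it, cannot be told from the spread between arrays.

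**Figure D1:**
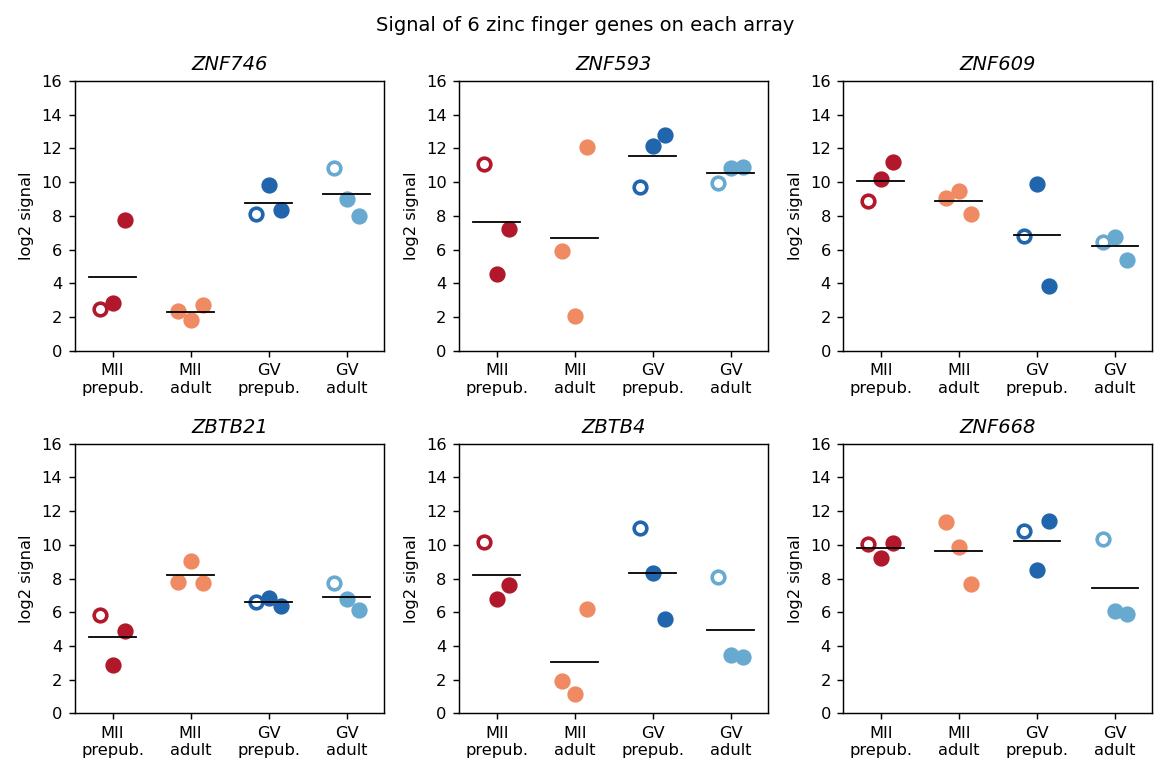
Log2 signal (y axis) of 6 zinc finger genes on each of the 12 arrays, by group (x axis), with the group mean as a line; open points are the 3 arrays without an oocyte profile. ZNF746 lies between 1.83 and 2.83 on 5 of 6 MII arrays and at 8.01 or more on every GV array, and ZBTB21 separates the MII groups.

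Of the comparisons, maturation in adult donors had the largest share of probe sets with a low unadjusted p, and ZNF746 had the lowest p of the zinc finger genes in it. ZNF746 encodes PARIS, a KRAB zinc finger protein that in mouse and human represses PPARGC1A, the gene for a master coactivator of mitochondrial biogenesis, and that parkin marks for destruction. Its signal was 2.33, 1.83 and 2.69 in MII adult oocytes, against 10.83, 8.99 and 8.01 in GV adult oocytes. The groups were separated by a gap wider than either group's own range. The difference was -6.99 (SE 1.57, limma unadjusted p = 0.00027, adjusted p = 0.392), and -6.22 (SE 1.63, adjusted p = 0.158) over 9 arrays. In prepubertal donors the gene read 2.48, 2.83 and 7.74 in MII oocytes, against 8.11, 9.82 and 8.32 in GV oocytes. The groups again did not overlap, but MII prepubertal replicate 3 lay close under the GV arrays. That difference was -4.40 (SE 1.57, limma unadjusted p = 0.0113, adjusted p = 0.999). Without MII prepubertal replicate 3 it was -6.10, and over 9 arrays -3.79. Over 12 arrays the stages of ZNF746 were thus apart in the same direction in both donor ages. Lower without overlap in MII oocytes were 6.05% of all probe sets in prepubertal and 7.19% in adult donors. The share apart in both donor ages was not computed, over 12 or 9 arrays. Among the genes below the signal threshold, ZNF608 also read lower on every MII array, at 3.15, 3.31 and 1.90 in MII prepubertal oocytes, against 9.04, 8.65 and 5.52 in GV prepubertal oocytes. In adult donors it read 3.37, 2.30 and 2.46 in MII oocytes, against 7.27, 5.03 and 5.13 in GV oocytes. Over the 9 arrays, with 2 arrays in most groups, ZBTB33, ZFP36, ZNF326 and ZNF609 (higher) and ZNF397, ZNF524 and ZSCAN21 (lower) were apart in both donor ages too. Non-overlap was common there. Higher were 19.4% of all probe sets in prepubertal and 15% in adult donors, and lower were 20.8% and 13.1%. By second probe sets above the signal threshold, the differences were 1 (prepubertal) and -0.93 (adult) for ZNF397, and 0.8 and 5.63 for ZSCAN21. For ZNF746 the difference between the 2 maturation changes was 2.59 (SE 2.22, limma unadjusted p = 0.258, adjusted p = 1). One probe set measures the gene, and adding 32 to every signal before the log, which damps low values, brought the differences to -2.71 (prepubertal) and -4.16 (adult).

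The other genes with an unadjusted p under 0.05 in adult maturation numbered 4 over 12 arrays, which with ZNF746 makes 5 of 85 (5.88%, against 7.93% of all probe sets). ZFP69, a KRAB zinc finger gene linked to diabetes in obese mice, read 11.09, 10.38 and 8.51 in MII adult oocytes, against 4.85, 7.60 and 6.86 in GV adult oocytes. All MII adult arrays were above all GV adult arrays, by 3.56 on average (SE 1.49, limma adjusted p = 0.595). ZNF444 read 4.54, 3.05 and 5.07 in MII adult oocytes, against 10.53, 7.20 and 7.40 in GV adult oocytes. It was lower on every MII adult array, with a difference of -4.16 (SE 1.60). ZSCAN12 and ZNF362 were higher in MII adult oocytes by 3.80 and 2.96, but ZSCAN12 overlapped because GV adult replicate 2 read 10.12. Of the 85 tested genes, 4 were higher on every MII adult array than on every GV adult array (ZBTB21, ZFP69, ZNF362 and ZNF609), where the background was 8.11%. Another 6 were lower throughout (ZBTB32, ZNF200, ZNF444, ZNF613, ZNF746 and ZSCAN21), where the background was 7.19%. A second ZSCAN21 probe set above the signal threshold went the other way. It read 8.74, 8.97 and 8.55 in MII adult oocytes, against 8.35, 2.05 and 4.21 in GV adult oocytes, a difference of 3.89.

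Over the 9 arrays the adult list was another: 12 of 85 genes (14.1%, against 11.4% of all probe sets) had an unadjusted p under 0.05. ZBTB33 encodes Kaiso, which binds methylated CpG and a specific unmethylated motif. It read 10.53, 11.74 and 8.82 in MII adult oocytes, against 6.10 and 7.63 in GV adult replicates 2 and 3, a difference of 3.50 (SE 1.10, limma adjusted p = 0.212). GV adult replicate 1 read 9.60, inside the MII range, and over 12 arrays the difference was 2.59. ZFP36, the founding mRNA decay factor of its family, read 9.89, 7.98 and 4.92 in MII adult oocytes, against 4.43 and 2.34 in those 2 GV adult arrays and 10.99 in GV adult replicate 1. Its difference was 4.21 (SE 1.62) over 9 arrays and 1.68 (SE 2.05) over 12. ZBTB40, ZFP69, ZNF317, ZNF470 and ZNF668 were the other genes higher in MII adult oocytes, by 2.76 (ZFP69) to 4.26 (ZNF317). Besides ZNF746, ZBTB9, ZNF397, ZNF771 and ZSCAN31 were lower, by -1.73 (ZSCAN31) to -3.89 (ZNF771). Of these, ZSCAN31 had narrow groups, at 11.86, 11.30 and 11.49 in MII adult oocytes, against 13.17 and 13.38 in the 2 GV adult arrays. Only ZFP69 and ZNF746 were on both the 12-array and the 9-array list.

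In prepubertal donors, 3 of 85 genes (3.53%, against 3.41% of all probe sets) had an unadjusted p under 0.05 over 12 arrays: ZNF609 higher, ZNF341 and ZNF746 lower. ZNF609, whose mouse counterpart works with the cohesin loader NIPBL and the Integrator complex, read 8.90, 10.16 and 11.22 in MII prepubertal oocytes, against 6.78, 9.91 and 3.85 in GV prepubertal oocytes. GV prepubertal replicate 2 overlapped the MII arrays. The difference was 3.25 (SE 1.41, limma adjusted p = 0.999), and in adult donors it was 2.71 (SE 1.41), with 9.09, 9.47 and 8.14 in MII adult oocytes, against 6.46, 6.75 and 5.36 in GV adult oocytes. In the adult groups the stages did not overlap. ZNF341, which in humans drives STAT3 expression in immune cells, read 1.88, 6.92 and 2.16 in MII prepubertal oocytes, against 7.75, 7.82 and 5.71 in GV prepubertal oocytes. Its difference was -3.44 (SE 1.61), and MII prepubertal replicate 2 lay within the GV range. Higher without overlap in MII prepubertal oocytes were 5 of the 85 tested genes (ZBTB1, ZNF398, ZNF462, ZNF583 and ZNF768), where the background was 3.66%, and lower were 5 (ZBTB21, ZNF143, ZNF274, ZNF667 and ZNF746), where it was 6.05%.

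The prepubertal arrays of the same replicate number deviated together across probe sets, with correlations of 0.609, 0.149 and 0.306 for replicates 1, 2 and 3, although no label says what the numbers share. The pair of replicate 1 arrays is the pair without an oocyte profile. With the replicate number as a block over the 6 prepubertal arrays, 13 of 85 genes (15.3%, against 10.1% of all probe sets) had an unadjusted p under 0.05. Without the block the same 6 arrays gave 3 genes (3.53%, against 3.77%). The lowest adjusted p among zinc finger genes with the block was 0.36 (limma). The 7 higher genes were ZBTB1, ZNF292, ZNF398, ZNF462, ZNF609, ZNF652 and ZNF706, and the 6 lower ones were ZNF181, ZNF304, ZNF341, ZNF397, ZNF593 and ZNF746.

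ZNF593 was the most variable zinc finger gene over the 9 arrays, with an SD of 3.88. It is known in human cells as a factor in the making of the large ribosomal subunit. It read 11.10, 4.56 and 7.23 in MII prepubertal oocytes, against 9.69, 12.15 and 12.81 in GV prepubertal oocytes. In adult donors it read 5.91, 2.07 and 12.08 in MII oocytes, against 9.97, 10.86 and 10.88 in GV oocytes. Of the 6 MII arrays, 4 were thus below every GV array, and the other MII arrays, MII prepubertal replicate 1 and MII adult replicate 3, read as high as GV arrays. Its differences were -3.93 in prepubertal and -3.88 in adult donors (SE 1.93 each), and -6.59 (SE 2.23, limma adjusted p = 0.645) and -4.18 (SE 2.04) over 9 arrays. ZNF622, another factor of large ribosomal subunit maturation, had differences of 0.17 (SE 1.13) in prepubertal and -1.0 (SE 1.03) in adult donors over 9 arrays.

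Over 9 arrays, 8 of 85 genes (9.41%, against 6.99% of all probe sets) had an unadjusted p under 0.05 in prepubertal maturation. ZBTB1, ZNF609, ZNF652 and ZNF706 were higher in MII prepubertal oocytes, and ZNF304, ZNF543, ZNF593 and ZNF830 were lower. ZNF706, which in mouse embryonic stem cells helps the exit from self-renewal, read 12.93 and 12.10 in MII prepubertal replicates 2 and 3, against 9.22 and 11.43 in GV prepubertal replicates 2 and 3. The difference was 2.19 (SE 0.79, limma adjusted p = 0.681). ZNF830, a spliceosome-associated protein, read 12.31 and 12.10 in these MII arrays, against 13.98 and 14.40 in these GV arrays, a difference of -1.98 (SE 0.71). ZBTB1, needed for lymphoid development in mouse, read 10.39, 9.79 and 9.11 on the 3 MII prepubertal arrays, against 8.60, 4.64 and 5.37 on the 3 GV prepubertal arrays. Its groups did not overlap, and its difference was 3.56 (SE 1.77) over 12 arrays and 4.45 (SE 2.05) over 9. A second ZBTB1 probe set above the signal threshold read 8.31, 6.91 and 8.33 on the MII arrays, against 9.32, 5.5 and 6.03. By it the groups overlapped, and the difference was 0.9 over 12 arrays and 1.85 over 9. The 9-array adult and prepubertal lists shared no zinc finger gene.

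**Figure D2:**
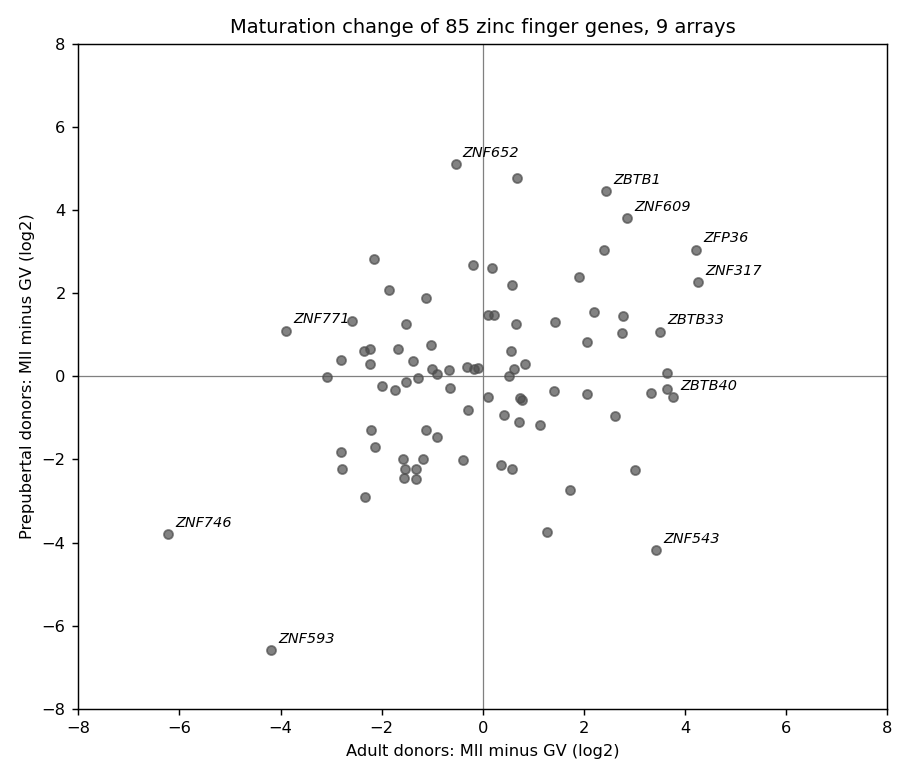
Difference of MII minus GV oocytes (log2) in adult donors (x axis) and prepubertal donors (y axis) for each of the 85 tested zinc finger genes over the 9 arrays with an oocyte profile; each point is a gene. ZNF746 and ZNF593 lie far down on both axes, while ZNF543 lies on opposite sides of 0.

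The median maturation difference of the zinc finger genes lay near 0 and near that of all probe sets. It was -0.17 in prepubertal and 0.13 in adult donors over 12 arrays, beside -0.29 (prepubertal) and -0.10 (adult) for all probe sets. Over 9 arrays it was 0.05 (prepubertal) and -0.18 (adult), beside -0.14 (prepubertal) and 0.05 (adult). A difference of the same sign in both donor ages was seen in 53 of 85 genes (62.4%) over 12 arrays, beside 65.7% of all probe sets, and in 46 of 85 (54.1%) over 9 arrays, beside 62.5%. Shares of genes with a positive difference were 40% in prepubertal and 54.1% in adult donors over 12 arrays, beside 41.2% (prepubertal) and 48.2% (adult) of all probe sets. These medians depend on the scaling: with each array centred on its median, the prepubertal median of zinc finger genes was 0.74, beside 0.62 for all probe sets, and the adult one was 0.91, beside 0.68.

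Donor age was next compared within each stage. In GV oocytes only ZNF668 had an unadjusted p under 0.05 over 12 arrays, 1 of 85 genes (1.18%, against 2.51% of all probe sets). ZNF668, tied in human cells to DNA repair, read 10.81, 8.51 and 11.44 in GV prepubertal oocytes, against 10.32, 6.06 and 5.92 in GV adult oocytes. Its groups overlapped through GV adult replicate 1, and the difference was 2.82 (SE 1.35, limma adjusted p = 1). Of the 85 tested genes, ZBTB32 alone was lower on every GV prepubertal array than on every GV adult array, at 4.17, 5.25 and 6.01, against 7.02, 6.40 and 6.43, where the background was 1.88%. None of the 85 was higher without overlap, where the background was 3.80%. ZNF821, which was not tested, read 7.71, 6.93 and 6.78 in GV prepubertal oocytes, against 4.79, 5.53 and 5.84 in GV adult oocytes. Over 9 arrays, 7 of 85 genes (8.24%, against 4.64% of all probe sets) had an unadjusted p under 0.05. ZFP36, ZNF184, ZNF470, ZNF543, ZNF565 and ZNF668 were higher in GV prepubertal oocytes and ZNF706 was lower. The 9-array list rests on 2 arrays against 2, and for all 6 higher genes GV adult replicate 1, which it leaves out, read 9.59 or more. The KRAB gene ZNF470 read 9.20 and 9.94 in GV prepubertal replicates 2 and 3, against 6.37 and 2.25 in GV adult replicates 2 and 3, a difference of 5.26 (SE 1.66, limma adjusted p = 0.997). With all 12 arrays it was 2.73 (SE 1.71). A second ZNF470 probe set above the signal threshold read 6.87 and 4.35 on those GV prepubertal arrays, against 7.19 and 6.83 on those GV adult arrays. Over 12 arrays its difference was -0.24.

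In MII oocytes, 3 of 85 genes (3.53%, against 2.66% of all probe sets) had an unadjusted p under 0.05 between donor ages over 12 arrays. ZBTB4, a methyl-CpG-binding repressor, read 10.15, 6.81 and 7.59 in MII prepubertal oocytes, against 1.90, 1.13 and 6.20 in MII adult oocytes. Every prepubertal array was above every adult array. The difference was 5.10 (SE 1.85, limma unadjusted p = 0.0124, adjusted p = 1) over 12 arrays and 4.12 (SE 1.83) over 9. In GV oocytes ZBTB4 was also higher on average in prepubertal donors, by 3.36 (SE 1.85), but with overlap. A second ZBTB4 probe set differed by only 0.64 between the MII groups. ZNF131, a BTB zinc finger protein despite its symbol, read 9.30, 6.18 and 6.48 in MII prepubertal oocytes, against 2.11, 6.93 and 2.44 in MII adult oocytes, a difference of 3.50 (SE 1.66), and 2.51 (SE 1.77) over 9 arrays. ZBTB4 and ZNF131 both read above the whole range of the 9 arrays on the 2 prepubertal replicate 1 arrays, where cumulus genes were high. Their means over the 9 arrays, 4.93 (ZBTB4) and 5.23 (ZNF131), were under the signal threshold of 5.57. They passed it over 12 arrays through arrays where they were high, among them MII prepubertal replicate 1, which is in the group compared here.

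ZBTB21, a BTB zinc finger repressor, read the other way in MII oocytes. It stood at 5.84, 2.85 and 4.86 in MII prepubertal oocytes, against 7.82, 9.06 and 7.73 in MII adult oocytes. The groups were apart, by -3.69 (SE 1.35, limma unadjusted p = 0.0132, adjusted p = 1) over 12 arrays and -4.35 (SE 1.35) over 9. In GV oocytes it stood at 6.62, 6.84 and 6.36 in prepubertal donors, against 7.71, 6.81 and 6.15 in adult donors, and the ages overlapped. Set against GV oocytes of the same donors, MII oocytes thus differed by -2.09 (SE 1.35) in prepubertal and 1.31 (SE 1.35) in adult donors. The remaining tested genes apart between MII groups were ZBTB16 and ZNF143, both lower in prepubertal donors, and ZNF692, higher. ZBTB16 (PLZF), a repressor best known from germline stem cells in mouse, read 6.99, 7.59 and 7.11, against 8.41, 8.55 and 7.82. ZNF143, a promoter-bound activator, read 7.05, 7.98 and 8.35, against 9.82, 9.88 and 9.25. Both were lower on every prepubertal array, with differences of -1.03 (SE 1.73) for ZBTB16 and -1.86 (SE 1.27) for ZNF143. The background for non-overlap was 4.78% higher and 5.18% lower. Over 9 arrays, ZBTB4 and ZNF263 were higher and ZBTB21 lower at an unadjusted p under 0.05, 3 of 85 (3.53%, against 2.56%). These age comparisons share their arrays with the maturation comparisons.

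The test of whether maturation differed with donor age (the prepubertal change minus the adult change) gave 0 of 85 zinc finger genes at an unadjusted p under 0.05 over 12 arrays, against 1.21% of all probe sets. Over 9 arrays it gave 3 (3.53%, against 3.06%): ZBTB21 at -4.47 (SE 2.01), ZNF565 at -5.27 (SE 2.41) and ZNF543 at -7.60 (SE 2.57), each with a limma adjusted p of 0.999. ZNF543, a KRAB gene, read 5.82 and 1.56 in MII prepubertal replicates 2 and 3, against 8.35 and 7.40 in GV prepubertal replicates 2 and 3. In adult donors it read 7.65, 4.65 and 8.50 in MII oocytes, against 4.21 and 2.82 in GV replicates 2 and 3. It was lower in MII oocytes of heifers and higher in MII oocytes of cows on these arrays. GV adult replicate 1 read 10.59, and with the 3 other arrays included the difference was -3.87 (SE 2.77).

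**Figure D3:**
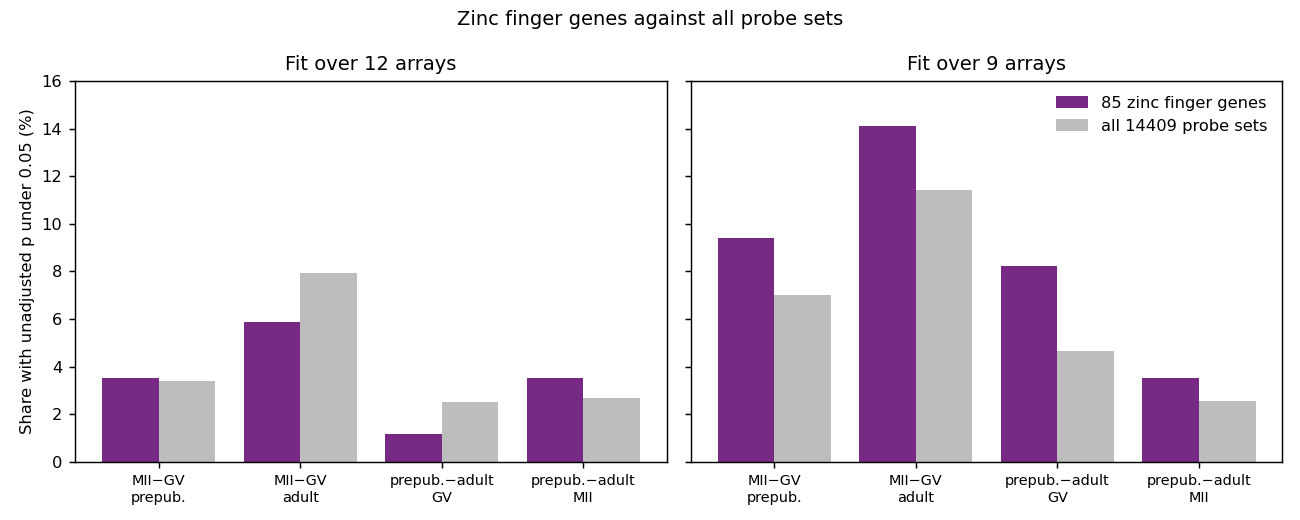
Share of features with an unadjusted p under 0.05 (y axis, percent) among the 85 zinc finger genes and among all 14409 probe sets, for maturation in prepubertal and adult donors and for donor age in GV and MII oocytes (x axis), in the fits over 12 and 9 arrays. Over 12 arrays the zinc finger share runs from 1.18% to 5.88%, beside 2.51% to 7.93% of all probe sets.

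Arranged by role, the zinc finger genes showed no list in which several members had an unadjusted p under 0.05 in one direction over 12 arrays. Of the 16 ZBTB genes, 13 were tested, and in adult maturation 8 had a positive difference (beside 48.2% of all probe sets), with a median of 1.01, and 7 over 9 arrays (beside 51.1%), with a median of 0.52. Of the 5 ZSCAN genes, 4 were tested. Their median was 0.85 in adult maturation over 12 arrays and -0.23 over 9, and only ZSCAN12 over 12 arrays and ZSCAN31 over 9 had an unadjusted p under 0.05. The 6 RNA-binding or decay genes (ZFP36, ZFP36L1, ZFP36L2, ZNF326, ZNF638 and ZNF830) had a median of 0.33 in prepubertal and 1.23 in adult maturation over 12 arrays, and -0.03 (prepubertal) and 0.30 (adult) over 9. Of 3 spindle and centromere genes listed, 2 were measured. ZNF207, which delivers BUB3 to kinetochores, differed by 0.75 (SE 1.21) in prepubertal and 1.21 (SE 1.21) in adult maturation. The tested activators ZNF143, ZNF148 and ZNF263 had a median of -1.26 in prepubertal and -1.71 in adult maturation over 12 arrays. Of the 7 pluripotency and early embryo genes listed, ZNF398 and ZNF706 were measured, with differences of 2.80 (SE 1.62) and 1.62 (SE 1.19) in prepubertal maturation. The imprint-binding factors ZFP57 and ZNF445 were not among the 113 genes.

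By the probe set used, a few zinc finger genes held nearly the same signal on all 9 arrays with an oocyte profile. The least variable was ZNF330, a nucleolar zinc finger protein first found as a centromere antigen, at 11.24 and 11.99 in MII prepubertal, 12.18, 11.81 and 11.97 in MII adult, 11.95 and 12.27 in GV prepubertal, and 12.01 and 11.77 in GV adult oocytes (SD 0.30). ZNF75D followed with a mean of 12.26 (SD 0.33), then ZFP36L1 at 14.09 (SD 0.46), ZBTB32 at 5.78 (SD 0.54) and ZBTB43 at 10.87 (SD 0.56). A second ZNF330 probe set above the signal threshold varied more, from 4.14 (GV adult replicate 3) to 10.17 (GV prepubertal replicate 2). For ZFP36L1 the maturation differences over 9 arrays were 0.18 (SE 0.52) in prepubertal and -0.18 (SE 0.47) in adult donors. Over the 9 arrays the median SD of a zinc finger gene was 1.74, ranging from 0.30 to 3.88, beside 1.61 for all probe sets. The most variable genes after ZNF593 were ZNF746 (SD 3.31), ZNF652 (SD 3.29), ZNF3 (SD 3.25) and ZFP36 (SD 3.02).

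**Figure D4:**
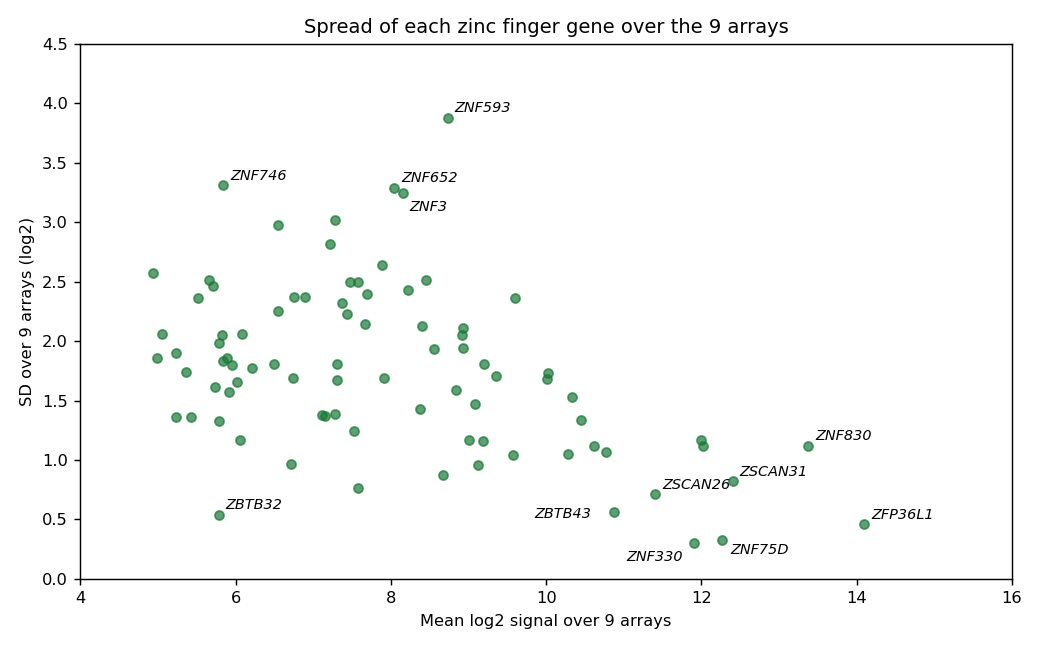
SD (y axis, log2) against mean log2 signal (x axis) over the 9 arrays with an oocyte profile for each of the 85 tested zinc finger genes. ZNF330, ZNF75D and ZFP36L1 combine SDs of 0.30 to 0.46 with means of 11.91 to 14.09, and ZNF593 has the highest SD at 3.88.

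Some zinc finger genes read outside the whole range of the 9 arrays on both prepubertal replicate 1 arrays, which lack an oocyte profile. This is a description without a test, since the arrays were set apart by their data. Of all 113 genes, 11 (9.73%, against 12.2% of all probe sets) lay above that range on both, and 7 (6.19%, against 5.68%) lay below it on both. Over all 113 genes the shares were thus near the background, but they differed between tested and untested genes. Above and tested were ZBTB4, ZFP36L2, ZNF131, ZNF326 and ZNF521, 5 of 85 (5.88%, against 13.7% of all probe sets tested). Of these 5, all but ZNF326 had a mean under the signal threshold over the 9 arrays, and passed it over 12 through the arrays where they were high. ZFP36L2, whose mouse counterpart is needed for female fertility, read 10.44 on both arrays, against a mean of 5.23 over the 9. Its second probe set was not high there, at 3.57 (MII) and 3.81 (GV). The second ZBTB4 probe set read 3.42 (MII) and 6.56 (GV), against 10.15 and 11.03 by the one used. Below were ZBTB43, ZFP36L1, ZNF75D, ZNF330, ZNF830, ZSCAN26 and ZSCAN31, all tested, 7 of 85 (8.24%, against 9.27%). ZFP36L1, of the same family as ZFP36L2, read 11.99 on the MII array and 10.89 on the GV array, against a mean of 14.09. A second ZFP36L1 probe set read 11.41 (MII) and 11.93 (GV), inside its own range over the 9 arrays. Of the 5 least variable genes over the 9 arrays, 4 (ZBTB43, ZFP36L1, ZNF75D and ZNF330) were thus among the 7 that were low there. A gene with a narrow range over the 9 arrays lies outside it more easily, so nothing is concluded from this overlap. ZSCAN26 was at 4.05 (MII) and 7.94 (GV), against a mean of 11.40. The others above the range on both arrays were 6 of the 28 genes not tested (21.4%, against 9.99% of all probe sets not tested): ZBTB44, ZNF385B, ZNF432, ZNF567, ZNF644 and ZNF800. ZNF385B read 10.22 (MII) and 10.78 (GV), against a mean of 3.21, and its second probe set read 6.69 and 8.20. ZNF644, a partner of the histone methyltransferase EHMT2, read 10.73 and 8.16, against a mean of 3.44. All 7 low genes were also below the range on GV adult replicate 1, whose cumulus median was -0.07.

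**Figure D5:**
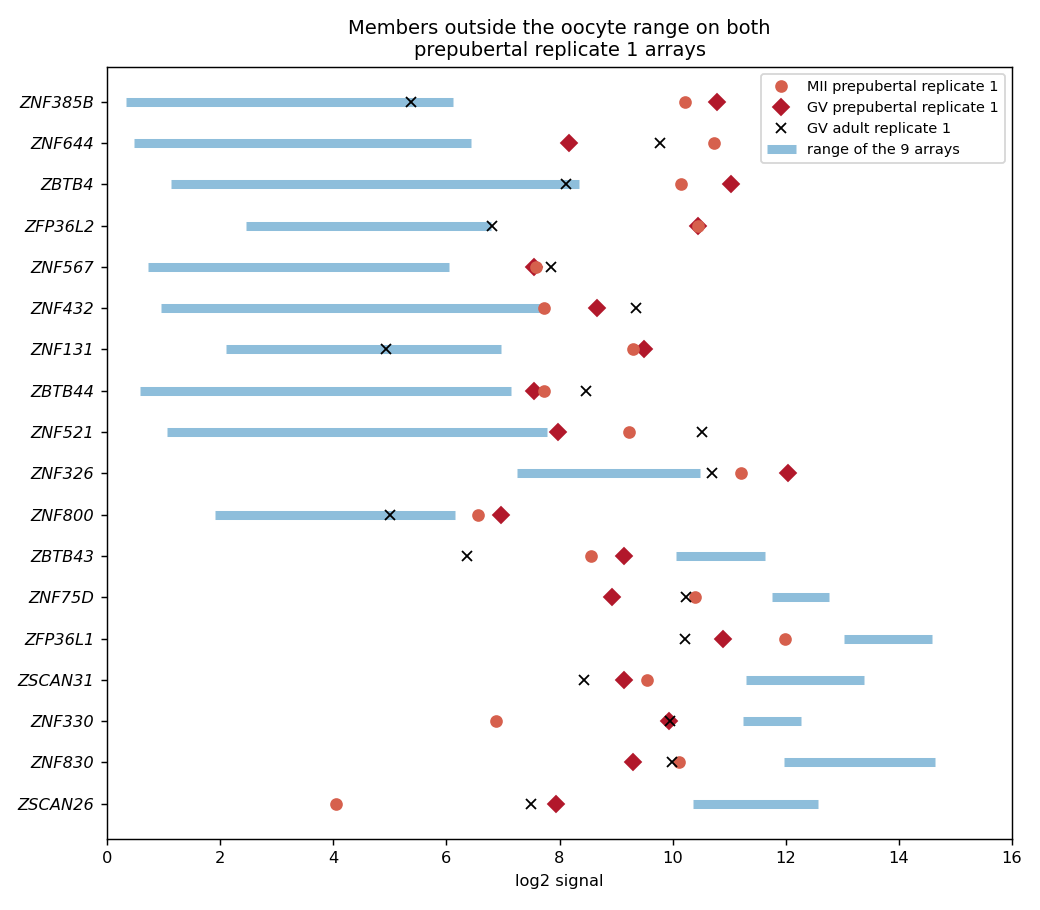
Log2 signal (x axis) of the 18 zinc finger genes (y axis) that lie outside the range of the 9 arrays with an oocyte profile (bars) on both prepubertal replicate 1 arrays (circles, MII; diamonds, GV); crosses are GV adult replicate 1. From ZNF385B down to ZNF800, 11 genes lie above their bars, and the 7 from ZBTB43 down lie below.

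The partners of these proteins were described from lists of other genes. Of 29 genes of the KRAB corepressor machinery, 19 were measured and 18 tested. Over 12 arrays, 14 of 18 had a positive difference in prepubertal maturation (median 0.42) and 14 of 18 in adult maturation (median 1.29), beside 41.2% (prepubertal) and 48.2% (adult) of all probe sets. Over 9 arrays it was 15 of 18 in each, with medians of 0.93 (prepubertal) and 0.81 (adult), beside 46.6% (prepubertal) and 51.1% (adult) of all probe sets. None passed the adjusted p, and in adult maturation only the maintenance methyltransferase DNMT1 had an unadjusted p under 0.05 over 12 arrays. DNMT1 read 10.88, 10.00 and 10.05 in MII adult oocytes, against 5.21, 8.85 and 7.48 in GV adult oocytes, with no overlap and a difference of 3.13 (SE 1.21, limma adjusted p = 0.585), and 2.15 (SE 1.01) over 9 arrays. TRIM28, the corepressor KRAB proteins bind, differed by 1.55 (SE 1.23) over 12 arrays and 2.55 (SE 1.13) over 9. UHRF1, which guides DNMT1 to replicating DNA, read 12.86 and 12.42 in GV prepubertal replicates 2 and 3, against 15.16 and 14.31 in GV adult replicates 2 and 3. That was a difference of -2.09 (SE 0.46, limma unadjusted p = 0.000392, adjusted p = 0.695), and over 12 arrays it was -1.33 (SE 1.81). Of 14 BTB corepressors and partners, 7 were tested and 4 had a positive adult difference over 12 arrays (median 0.45), beside 48.2% of all probe sets.

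Of 12 genes of the pathway around ZNF746, 7 were tested, and 5 had a positive difference in prepubertal maturation (median 0.90) and 6 in adult maturation (median 1.51), beside 41.2% (prepubertal) and 48.2% (adult) of all probe sets. PPARGC1A, the known target of PARIS, read 3.73, 10.56 and 9.38 in MII prepubertal and 11.58, 11.60 and 10.25 in MII adult oocytes, against 5.38, 8.18 and 7.41 in GV prepubertal and 8.02, 10.69 and 9.95 in GV adult oocytes. Its differences were 0.90 (SE 1.5) in prepubertal and 1.59 (SE 1.5) in adult maturation, and 2.17 (SE 1.03) and 0.82 (SE 0.94) over 9 arrays. The prohibitin gene PHB1 was higher in MII prepubertal oocytes, at 8.23, 9.53 and 8.80, against 7.51, 3.35 and 4.04 in GV prepubertal oocytes. The groups did not overlap, and the difference was 3.89 (SE 1.56, limma adjusted p = 0.999), and 5.47 (SE 1.69) over 9 arrays.

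Zinc finger genes often lie in clusters. In the RefSeq gene table (assembly ARS-UCD2.0), 12 pairs of the 113 genes are next to each other. ZNF777, the neighbour of ZNF746, was among the genes not tested, and its adult difference was -0.20 over 9 arrays beside -6.22 for ZNF746. Of 7 genes around ZNF746 in the human genome, ZNF398, ZNF746 and ZNF777 were measured, and ZNF398 differed by -0.20 (SE 1.73). ZNF543 and ZNF304 differed by 3.42 and -1.33, and ZSCAN12 and ZSCAN31 by 3.33 and -1.73. Over all 12 pairs, the adult differences over 9 arrays had the same sign in 7, for example in ZNF200 (-1.02) and ZNF263 (-1.85).

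Different probe sets of one gene often disagreed. Of the 113 genes, 28 had several probe sets, and 14 had 2 or more above the signal threshold. The sign of the adult maturation difference was shared by all such probe sets in 8 of 14 genes over 12 arrays and in 7 of 14 over 9, and of the prepubertal difference in 7 of 14 in both. For ZBTB40 the adult difference was 3.31 by the probe set used and -2.99 by the second. ZNF398 gave 2.80 and 3.63 in prepubertal maturation by 2 probe sets and -3.03 by another. ZNF292 was more even, at 3.10 and 1.92.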

How the data were processed

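RNA of 12 oocyte pools was amplified with the WT-Ovation Pico system, labelled with biotin and hybridised to Affymetrix bovine arrays, 1 array per pool, per the labels' protocols. The deposited values are log2 signals of MAS5, per the submitters' processing notes. On the linear scale their trimmed mean is 500 on each array, so array medians (5.64 to 8.30) still differ. No depth exists for arrays, and their number limits the precision. Pools within a group are labelled as biological replicates, without naming their animals or collection days, so p-values measure the spread between pools.

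All probe sets with a mean above the 40th percentile (14409 kept of 24128 in the table, after 112 control probe sets were left out) were fitted on the deposited scale with limma 3.58.1 (R 4.3.3; empirical Bayes with an intensity trend) in 1 model of the 4 groups (8 residual degrees of freedom), with Benjamini-Hochberg adjustment over all of them. The alternative over the 9 arrays with an oocyte profile has 5 residual degrees of freedom. An array had such a profile where its median oocyte gene was at least 2 above the array median. All 113 genes matched the RefSeq gene table by Entrez identifier and no symbol changed. The members, lists and arrays set apart were chosen with earlier results of these data known. Named are ZNF746; per comparison, the 6 genes in each direction with the smallest p over 12 arrays and the 4 over 9; the 5 highest and 5 lowest on the prepubertal replicate 1 arrays; the 5 least variable; and members of the role lists. Not all of these are printed, and the genes without overlap, the 4 most variable after ZNF593 and the probe set examples were picked after their values were seen. A test on simulated data of the adult maturation comparison (14409 genes) called 5 of 100 genes changed by 4 and 73 of 100 changed by 8 on the log2 scale. Pairing by replicate number was checked by the correlation of deviations from group means. It was above 0.1 for every pair in prepubertal maturation (0.149 to 0.609). It was not above 0.1 for every pair in the other comparisons, where the lowest values were -0.105 (adult maturation), -0.021 (GV age) and -0.093 (MII age). In GV age it was 0.383 and 0.381 for replicates 1 and 3.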

Additional observations from a re-analysis of the deposited data

Results flagged for a closer look

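ZBTB21 was picked out because its maturation difference ran in opposite directions in the 2 donor ages on every array: all 3 MII prepubertal arrays (2.85 to 5.84) lay below all GV prepubertal arrays (6.36 to 6.84), while all 3 MII adult arrays (7.73 to 9.06) lay above all GV adult arrays (6.15 to 7.71). The difference between the 2 changes, prepubertal minus adult, was -3.40 (SE 1.91, limma unadjusted p = 0.0905, adjusted p = 1), and it ranged from -4.47 to -2.22 over the alternatives, with adjusted p-values of 0.999 or more. It was found by looking through 85 genes, and no correction was made for the search itself.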

How the results depend on the processing

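The count of zinc finger genes past an adjusted p of 0.05 was 0 in each of the 5 comparisons under every alternative run (limma). Counts at an unadjusted p under 0.05, given for adult maturation, prepubertal maturation, GV age, MII age and the difference of maturations, were 5, 3, 1, 3 and 0 as reported. The shares of all probe sets, in the same order, were 7.93%, 3.41%, 2.51%, 2.66% and 1.21%. For each alternative these shares follow in brackets, since they moved too. With quantile normalization the counts were 8, 4, 1, 3 and 0 (8.45%, 3.1%, 3.97%, 1.8% and 1.52%). With median centring they were 7, 7, 1, 4 and 0 (8.09%, 4.34%, 2.32%, 3.04% and 1.37%). Without the signal filter they were 8, 9, 1, 5 and 0 (7.75%, 4.55%, 2.16%, 2.59% and 1.22%). A 60th percentile filter, which leaves out ZNF746, gave 3, 1, 0, 0 and 0 (8.63%, 2.79%, 2.99%, 2.5% and 1.17%). The filter settings also change how many zinc finger genes are tested. Adding 32 before the log gave 3, 5, 0, 2 and 0 (8.02%, 3.07%, 2.42%, 2.21% and 1.05%). No intensity trend gave 5, 4, 0, 3 and 0 (7.81%, 3.89%, 2.45%, 2.53% and 1.28%). The letter b of some titles as a covariate gave 7, 6, 0, 3 and 0 (7.18%, 4.39%, 2.96%, 3.14% and 1.65%). The 9 arrays gave 12, 8, 7, 3 and 3 (11.4%, 6.99%, 4.64%, 2.56% and 3.06%). With quantile normalization they gave 14, 9, 8, 3 and 3 (11.9%, 8.19%, 5.52%, 2.48% and 3.37%). With median centring they gave 11, 9, 3, 4 and 4 (8.95%, 7.12%, 3.31%, 2.59% and 2.32%). Averaging each gene's probe sets gave 5, 4, 1, 3 and 0 (7.63%, 3.57%, 2.45%, 2.61% and 1.23%). Fitting the compared groups alone gave 5, 3, 0 and 2 (7.05%, 3.77%, 1.59% and 2.95%). The replicate block in those fits gave 5, 13, 4 and 5 (6.82%, 10.1%, 4.28% and 3.39%). For the difference of maturations, the block in the fit over 12 arrays gave 1 (1.71%). In the other comparisons than prepubertal maturation, not every pair of arrays deviated together. In GV age the pairs of replicates 1 and 3 did (correlations of 0.383 and 0.381), and that of replicate 2 did not (-0.021). Leaving out 1 array at a time gave 2 to 8, 1 to 5, 0 to 7, 2 to 5 and 0 to 3. The shares of all probe sets then ran from 5.51% to 10.6% in adult and 1.74% to 6.68% in prepubertal maturation. They ran from 2.03% to 4.98% in GV age, 1.55% to 3.87% in MII age and 0.847% to 2.88% for the difference.

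Of 45 results on single genes, 38 kept their sign in all their alternatives, and 20 of 1101 gene alternatives reversed. ZNF746 in GV age was 0.57 over 9 arrays, 0.35 and 0.24 with these quantile normalized and centred, and 0.25 without GV adult replicate 1. ZBTB21 in GV age was 0.12 over 9 arrays and without GV adult replicate 1. Without GV adult replicate 3, ZFP36 and ZNF470 in adult maturation were -0.11 and -0.02. ZNF397 in adult maturation was 0.32 (quantile), 0.02 (centring), 0.77 without GV adult replicate 2 and 0.23 without MII adult replicate 3. ZSCAN31 in adult maturation was 0.60 (quantile), 0.67 (centring), 0.64 and 0.74 without GV adult replicates 2 and 3, and 0.01 without MII adult replicate 2. ZNF706 in GV age was 0.26 (quantile), 0.13 without GV prepubertal replicate 2 and 0.21 without GV adult replicate 3. The cause was not tested. When 1 array was left out, ZNF746 ranged from -7.62 to -6.22 in adult maturation and from -1.16 to 0.25 in GV age, and ZBTB21 and ZNF706 in GV age from -0.65 to 0.12 and from -1.65 to 0.21. In adult maturation these ranges were -0.11 to 4.21 for ZFP36, -2.80 to 0.77 for ZNF397, -0.02 to 3.65 for ZNF470 and -1.73 to 0.74 for ZSCAN31. Signal over background could not be judged, since no detection calls were used, and the median standard error with 3 arrays a group was 1.54.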

Other observations

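Zinc finger factors with other names were read beside the families above. Of 46 such genes listed, 17 were measured and 15 tested, with medians of 0.06 in prepubertal and 0.09 in adult maturation over 12 arrays, and none passed the adjusted p (limma). IKZF3, a lymphoid factor of the Ikaros family, read 2.89, 1.87 and 0.95 in MII prepubertal oocytes, against 7.24, 7.36 and 7.08 in MII adult oocytes. The groups did not overlap, and the difference was -5.32 (SE 1.68, limma unadjusted p = 0.00499, adjusted p = 1), and -5.81 (SE 1.74) over 9 arrays. EGR1, an immediate early gene, read 15.27, 8.53 and 8.94 in MII prepubertal oocytes, against 4.90, 8.96 and 4.30 in MII adult oocytes, a difference of 4.86 (SE 2.09), and 2.68 (SE 1.79) over 9 arrays. Its 2 highest arrays in the series were the prepubertal replicate 1 arrays, at 15.27 (MII) and 14.28 (GV), where KLF10 also read 12.59 (MII) and 13.27 (GV).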
